A study of Arabidopsis thaliana with 31 samples.

Results

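The methylome of *ago1* plants comprised 3059 differentially methylated regions (DMRs) between 24h and time point 0, of 24655 DMRs listed for all 5 genotypes of the study. All rows of the hyper- and hypo-DMR lists of *ago1* plants were taken, so that the members were every region at which the methylation level was called higher (hyper-DMR) or lower (hypo-DMR) at 24h. The study asked how photodamage repair pathways affect the DNA methylome of *Arabidopsis thaliana* leaves upon UV-C exposure, and compared both time points within *ago1*, *dcl4*, *ddb2*, *uvr3 phrI* and WT plants by whole-genome bisulfite sequencing (WGBS). The *ago1* plants carried the hypomorphic ago1-27 allele in the Col 0 ecotype, were grown in vitro and received UV-C at 3000 J/m2. Leaves were harvested 24h upon exposure and, for time point 0, immediately upon exposure according to the methods and the labels, whereas the results of the study call time point 0 the state prior to irradiation. Their age is given as 18 days in the labels and is higher in the methods. Leaves of 2 biological replicates were pooled, and 1 library was made per time point.

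ARGONAUTE1 (AGO1) binds microRNAs and small interfering RNAs and uses them to silence complementary transcripts. In plants, cytosines are methylated in the CG, CHG and CHH contexts, where H is A, C or T. CHH methylation of short transposable elements (TEs) and of TE edges is mainly deposited by DRM2 through RNA-directed DNA methylation (RdDM), which is guided by 24-nt small RNAs and AGO4. In the bodies of long heterochromatic TEs it is mainly maintained by CMT2.

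The sequences of the largest CHH gains of at most 300 bp, in a TE and outside TEs, and of the largest such loss outside TEs are given as examples. They are the plus strand of the TAIR10.1 reference, with the start of the lists counted from 0, and capitals mark the cytosines of the printed strand that lie in a CHH context.
Gain in a TE, chr3:13261600-13261800: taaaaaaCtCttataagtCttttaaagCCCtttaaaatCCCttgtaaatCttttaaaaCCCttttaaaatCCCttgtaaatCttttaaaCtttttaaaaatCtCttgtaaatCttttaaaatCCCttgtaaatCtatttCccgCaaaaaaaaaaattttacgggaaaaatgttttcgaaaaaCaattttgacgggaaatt
Gain outside TEs, chr4:7243850-7244050: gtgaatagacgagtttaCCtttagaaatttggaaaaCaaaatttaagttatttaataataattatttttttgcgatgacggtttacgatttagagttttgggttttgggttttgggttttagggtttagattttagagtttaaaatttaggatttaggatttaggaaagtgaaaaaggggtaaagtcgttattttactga
Loss outside TEs, chr3:19568350-19568550: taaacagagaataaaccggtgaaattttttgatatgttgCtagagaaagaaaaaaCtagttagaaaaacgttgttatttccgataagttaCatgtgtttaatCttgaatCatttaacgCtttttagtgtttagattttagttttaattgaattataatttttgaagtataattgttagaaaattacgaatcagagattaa

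The gain in a TE came from a copy of ARNOLDY2, a Mutator-like DNA transposon family, and was built of short A- and T-rich repeats around the motif TTTTAAAA, a palindrome that reads the same on both strands. The motif occurred 4 times in this gain and was absent from both sequences outside TEs. At least 3 copies were found in the first 200 bp of 29 of 1467 hypo-DMRs (1.98%, 95% CI 1.33 to 2.83) and of 6 of 1592 hyper-DMRs (0.377%, 95% CI 0.138 to 0.819). Of all 200-bp windows of the genome 0.132% held as many copies, against 0.638% of those in TEs and 23.9% of those in ARNOLDY1 and ARNOLDY2 elements. Of these DMRs, 19 of the 29 losses and 5 of the 6 gains lay in ARNOLDY1 and ARNOLDY2 elements. Within these elements the share was 28.8% of 66 hypo-DMRs (95% CI 18.3 to 41.3) and 15.2% of 33 hyper-DMRs (95% CI 5.11 to 31.9), and both intervals hold the share of all their windows. The motif was chosen after these sequences were seen. CHH cytosines were unevenly spread over the strands. The gain outside TEs had 3 on the plus strand and 39 on the minus strand, whereas the gain in a TE had 28 on the plus strand and 10 on the minus strand.

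Most 24h levels of *ago1* plants at regions with the same coordinates and context in the *ddb2* lists were identical to the 24h levels of *ddb2* plants to the last printed digit. This held for 78 of 96 such regions (81.2%, 95% CI 72.0 to 88.5), and the other 18 differed by 0.0733 to 4.69 points. None of the 96 levels at time point 0 was identical. Between the 9 other pairs of lists, 393 regions had the same coordinates, and none had an identical level at 24h. The median difference at 24h was 0 points between *ago1* and *ddb2*, against 4.48 to 12.7 points between the other pairs. The lists do not tell whether the common values came from *ago1* or from *ddb2* plants. At these regions a change over time in *ago1* and a difference between genotypes therefore cannot be told apart. The 96 regions were 88 hyper- and 8 hypo-DMRs, or 3.14% of the *ago1* DMRs, and the main results are given with and without them. The identity can be seen only where coordinates agree, and whether other *ago1* DMRs are affected was not tested.

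**Figure D1:**
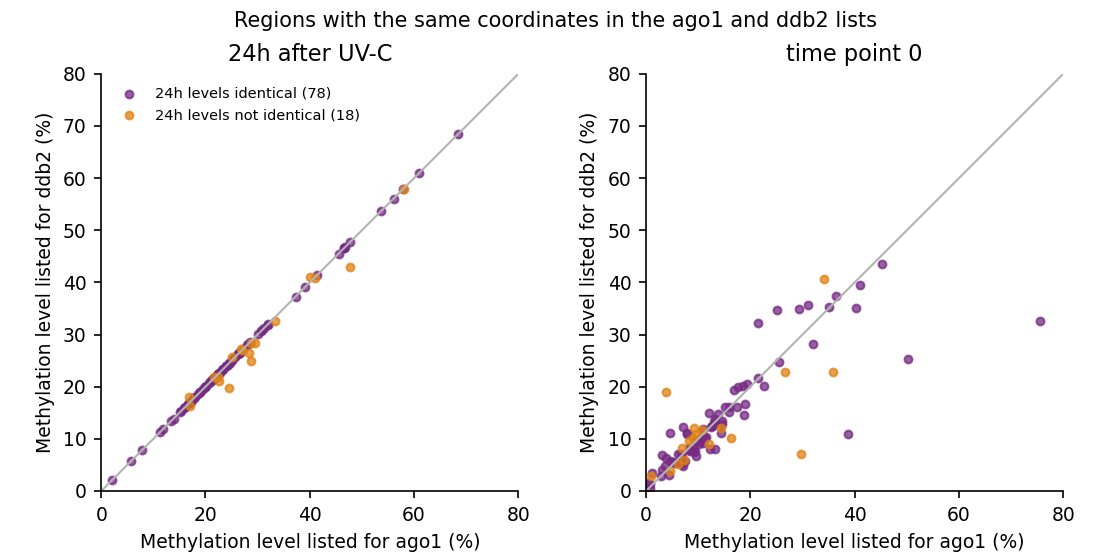
Methylation levels (%) of the 96 regions listed with the same coordinates and context for *ago1* (x axis) and *ddb2* (y axis) plants, at 24h (left) and at time point 0 (right). At 24h, 78 points lie on the line of equality (purple), whereas at time point 0 no pair of levels is identical.

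No value has a replicate check, since each time point is 1 library. Intervals of shares are exact binomial ones after Clopper and Pearson, those of medians come from order statistics, and both cover counting error over regions only. Read numbers per region are not part of the lists, and the depth behind a single level is unknown. Of the WGBS libraries of the study, that of WT at time point 0 had by far the fewest mapped reads. Its part in the values of WT, and so in each comparison of *ago1* with WT, was not tested. In whole leaves, a change of methylation within cells and a change of the mixture of cells cannot be told apart.

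Gains and losses were close to balanced in number, with 1592 hyper-DMRs and 1467 hypo-DMRs. The share of gains was 52.0% (95% CI 50.3 to 53.8), and 50.8% without the regions of the *ddb2* lists. All but 6 DMRs were in the CHH context, 5 gains and 1 loss were in the CHG context, and none was in the CG context. The levels chose the regions and are a description. At CHH hyper-DMRs the median was 28.8% at 24h (95% CI 28.1 to 29.8) and 13.8% at time point 0 (95% CI 13.2 to 14.5). At CHH hypo-DMRs it was 11.9% at 24h (95% CI 11.3 to 12.5) and 28.7% at time point 0 (95% CI 28.0 to 29.5). The smallest CHH changes listed were changes of 10.001 and -10.004 points, just inside the minimum of 10 points, and changes below it are not listed. The upper level of a region was thus about the same in both directions, and the gains started and the losses ended at low but measurable CHH methylation. Most regions were short. A single 200-bp window made up 50.2% of the hyper-DMRs and 52.2% of the hypo-DMRs, and 19 hyper- and 8 hypo-DMRs reached 500 bp.

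The balance depended on the size of the change. The median gain was 13.2 points (95% CI 12.9 to 13.4) and the median loss 15.1 points (95% CI 14.8 to 15.6). Among CHH changes of 10 to 15 points 59.2% were gains (95% CI 56.8 to 61.5, n = 1778). Gains made up 48.3% of the changes of 15 to 20 points (n = 715), 34.9% of those of 20 to 30 points (95% CI 30.5 to 39.6, n = 441) and 28.0% of those of 30 to 40 points (n = 93). Of 26 changes of at least 40 points, 10 were gains. DMRs of *ago1* plants were thus mostly gains where the change was small and mostly losses where it was large. Without the smallest changes, the share of gains was 42.2% at a minimum of 15 points and 34.5% at a minimum of 20 points.

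**Figure D2:**
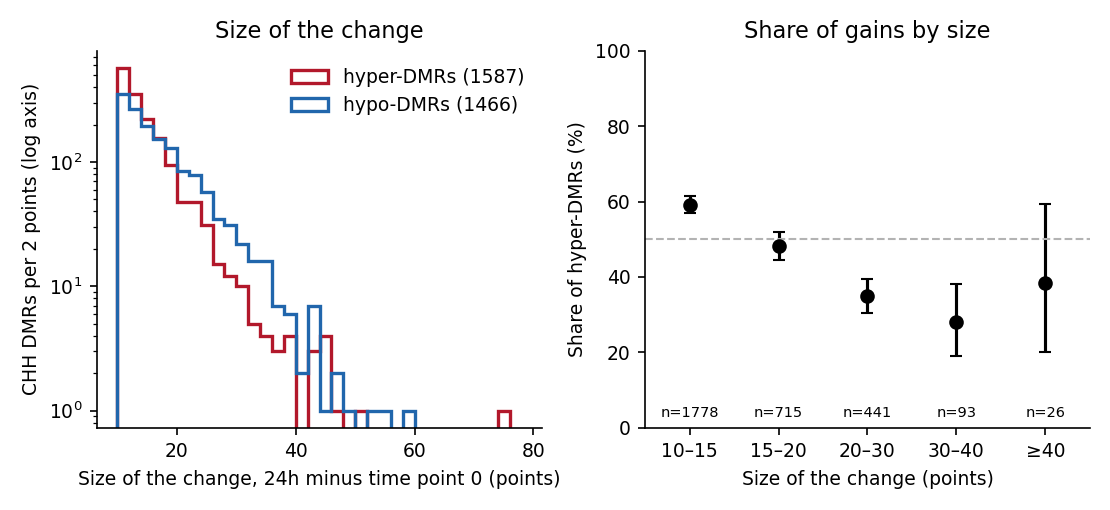
Left, number of CHH DMRs of *ago1* plants per 2 points of change (log axis) against the size of the change in points, for hyper-DMRs (red) and hypo-DMRs (blue). Right, share of hyper-DMRs (%) by size of the change, with exact 95% intervals and the number of DMRs. Gains are 59.2% of the changes of 10 to 15 points and 34.9% of those of 20 to 30 points.

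The midpoint of 2086 DMRs lay in a TE (68.2%), of 860 in intergenic DNA (28.1%) and of 113 in a protein-coding gene outside TEs (3.69%). These classes were taken up to similar extents by both directions, with 67.3% of hyper-DMRs and 69.1% of hypo-DMRs in TEs. Pericentromeric DNA, which made up 17.8% of the genome by its low density of genes, held 41.5% of the hyper-DMRs (95% CI 39.1 to 44.0) and 48.3% of the hypo-DMRs (95% CI 45.7 to 50.9). Gains were 55.1% of the DMRs of the arms (95% CI 52.7 to 57.5) and 48.2% of those of the pericentromere (95% CI 45.6 to 50.9). The same order was seen in intergenic DNA, where gains were 57.2% of 500 DMRs in the arms and 46.7% of 360 DMRs in the pericentromere. Over the 5 chromosomes the share of gains was between 48.4% on chromosome 2 and 55.7% on chromosome 3. Of the 860 intergenic DMRs, 317 had no TE within 1000 bp, and the same share of all intergenic DNA was not computed. Of these 317 DMRs 159 were gains.

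Of 31189 annotated TEs, 3.07% held the midpoint of a hyper-DMR and 3.07% that of a hypo-DMR. In all 1801 TEs of 215 names had a DMR, and 115 of them had DMRs of both directions. The direction differed between groups of TEs. Gains prevailed in retroelements without LTRs and in several DNA transposons. In SINEs, short retroelements copied from small RNA genes, 31 of 39 DMRs were gains (79.5%, 95% CI 63.5 to 90.7). In LINEs, the long elements that encode their own reverse transcriptase, 54 of 76 were gains (71.1%, 95% CI 59.5 to 80.9). In Harbinger elements 29 of 42 were gains (69.0%, 95% CI 52.9 to 82.4), and in the Gypsy-like ATGP and ATLANTYS elements 78 of 123 (63.4%, 95% CI 54.3 to 71.9). Losses prevailed in helitrons, which transpose by rolling circles. In the ATREP elements, short helitrons without coding capacity, 209 of 518 DMRs were gains (40.3%, 95% CI 36.1 to 44.7), and in elements named HELITRON 87 of 196 (44.4%, 95% CI 37.3 to 51.6). The Mutator-like ARNOLD and BRODYAGA elements were similar, with 86 gains of 196 (43.9%, 95% CI 36.8 to 51.1), whereas the Mutator-like VANDAL and ATMU elements had 146 gains of 252 (57.9%, 95% CI 51.6 to 64.1). ATHILA elements, the most abundant Gypsy elements of the pericentromere, had 130 gains of 245 (53.1%, 95% CI 46.6 to 59.4), and COPIA elements 57 of 111 (51.4%, 95% CI 41.7 to 61.0). Without the regions of the *ddb2* lists the share of gains was 77.1% in SINEs and 39.1% in ATREP elements.

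Gains were densest in SINEs, the shortest elements, and losses in ARNOLD and BRODYAGA elements. SINEs had 357 hyper-DMRs per Mb of element and 92.0 hypo-DMRs per Mb, Harbinger elements 117 and 52.3, and ARNOLD and BRODYAGA elements 80.6 and 103. CACTA elements had the lowest densities of the 12 named groups in both directions, with 21.2 hyper- and 16.1 hypo-DMRs per Mb. Over all TEs the densities were 43.0 and 40.7 per Mb.

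**Figure D3:**
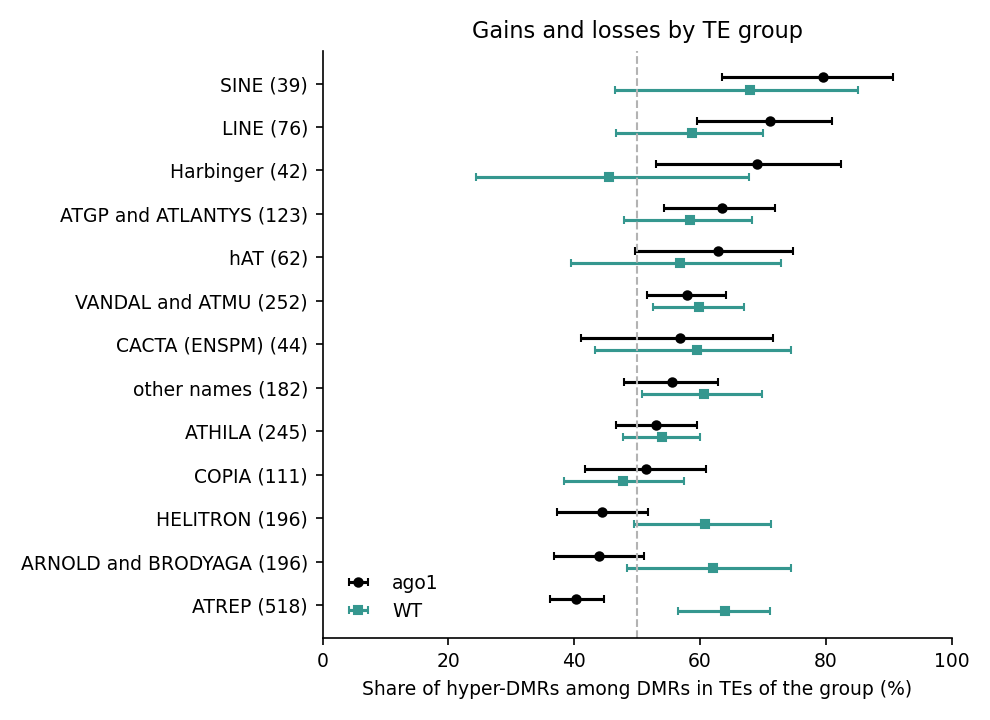
Share of hyper-DMRs (%) among the DMRs with their midpoint in TEs of each group, for *ago1* (black circles) and WT (green squares) plants, with exact 95% intervals and the number of *ago1* DMRs in parentheses. ATREP elements have 40.3% gains in *ago1* and 64.0% in WT plants, whereas the intervals of both genotypes overlap in each of the other groups.

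The 10 TE names with the most DMRs were ATREP3, HELITRONY3, ATGP1, ATREP10D, ARNOLDY2, ARNOLDY1, ATHILA2, ATREP18, META1 and ATREP11. ATREP3 had the most, with 27 gains and 82 losses (24.8% gains, 95% CI 17.0 to 34.0). Losses of ATREP3 went to a median of 16.2% at 24h, against 39.5% at time point 0. The low share of gains was found in ATREP3 copies of the arms (22 of 84) and of the pericentromere (5 of 25), on each of the 5 chromosomes (between 1 of 13 on chromosome 4 and 9 of 24 on chromosome 3), and at changes of at least 20 points (8 of 46). ARNOLDY1 had 14 gains and 34 losses and ARNOLDY2 19 gains and 32 losses, with median losses of 22.7 and 24.3 points. HELITRONY3 had 48 gains and 55 losses, ATREP10D 25 and 34, and ATREP11 17 and 21. Gains outnumbered losses in ATGP1, a Gypsy element (49 and 32), in ATHILA2 (27 and 20), in ATREP18 (25 and 22) and in META1, a Copia element (21 and 18). Of these 10 names, ATREP3 and ARNOLDY1 were those whose interval lay below 50%. Without ATREP3 the share of gains was 44.5% in the other ATREP elements (n = 409) and 52.9% in all TEs (n = 1977).

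The gap between helitrons and other TEs was wide over all changes and narrow among large ones. Gains were 41.5% of the DMRs in helitrons (n = 714) and 56.6% of those in other TEs (n = 1372), and 36.7% and 43.5% at changes of at least 15 points. At changes of at least 20 points they were 31.9% of 229 DMRs in helitrons and 32.2% of 211 DMRs in other TEs. Without the regions of the *ddb2* lists the values were 40.1% in helitrons and 55.4% in other TEs. In SINEs, LINEs and Harbinger elements together, gains were 114 of 157 DMRs, and 28 of 35 at changes of at least 15 points. Of these, ATSINE4 had 13 gains of 15 DMRs, SIMPLEGUY1, a Harbinger element, 20 of 26, and ATLINE1A 21 of 29. These names were chosen after their values were seen.

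TE length showed no steady trend. Gains were 58.4% of the DMRs in TEs under 500 bp (95% CI 53.2 to 63.4, n = 375), 47.7% in TEs of 500 to under 1000 bp (n = 384), 49.1% in TEs of 1000 to under 2000 bp (n = 470) and 43.9% in TEs of 2000 to under 4000 bp (95% CI 38.7 to 49.2, n = 360). In TEs of 4000 bp and more the share was 56.5% (95% CI 52.1 to 60.9, n = 497). The shortest and the longest TEs thus had more gains than losses, and those between had about as many or fewer. The same shape was found in the arms, with 60.7%, 48.2% and 58.5% in TEs under 500 bp, of 2000 to under 4000 bp and of 4000 bp and more, and in the pericentromere, with 54.1%, 40.2% and 55.6%. In the helitrons alone the shares were 50.6%, 39.3% and 42.1%, and in the other TEs 60.8%, 48.4% and 57.7%. Without the regions of the *ddb2* lists the values were 57.0%, 42.5% and 54.8%. At changes of at least 15 points, however, gains were 52.5% in TEs under 500 bp, 35.9% in TEs of 2000 to under 4000 bp and 39.9% in TEs of 4000 bp and more, so that the high share in the longest TEs rested on changes of 10 to 15 points. Long elements were hit more often per copy. Of the TEs of 4000 bp and more 17.3% held a hyper-DMR and 15.3% a hypo-DMR, against 1.12% and 0.799% of the TEs under 500 bp. Per Mb the order was the opposite, with 31.3 hyper- and 24.1 hypo-DMRs in the longest TEs and 62.8 and 44.7 in the shortest.

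**Figure D4:**
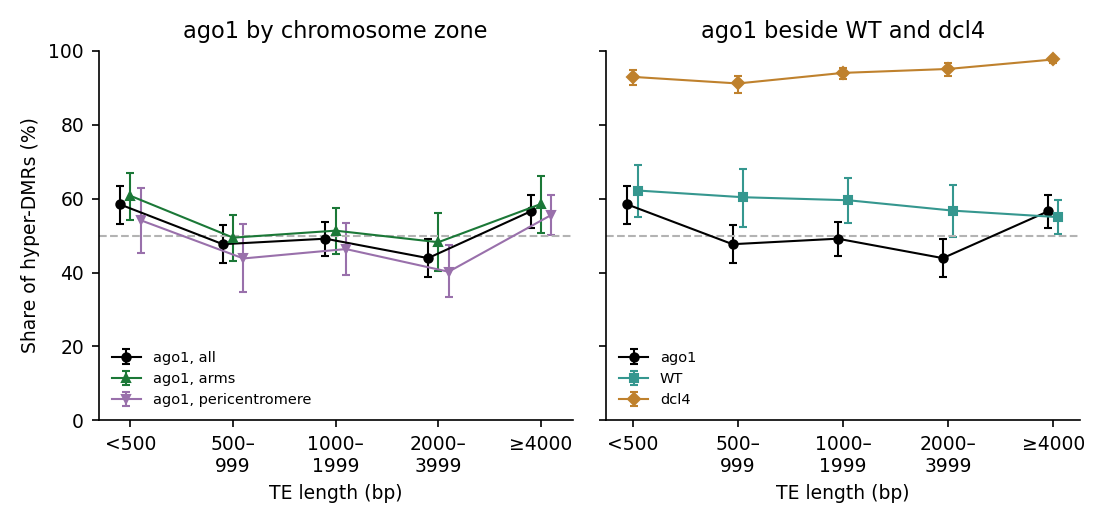
Share of hyper-DMRs (%) among the DMRs in TEs by TE length in bp, with exact 95% intervals. Left, *ago1* plants over all TEs (black), in the arms (green) and in the pericentromere (purple); right, *ago1* (black), WT (blue-green) and *dcl4* (brown) plants. In *ago1* plants the share is 58.4% under 500 bp, 43.9% at 2000 to under 4000 bp and 56.5% at 4000 bp and more.

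Gains were found at TE edges more often than losses. In TEs of at least 1000 bp, 222 of 670 hyper-DMRs had their midpoint within 300 bp of a TE end (33.1%, 95% CI 29.6 to 36.8), against 170 of 657 hypo-DMRs (25.9%, 95% CI 22.6 to 29.4). These edges made up 20.5% of the bases of such TEs. Without the regions of the *ddb2* lists the shares were 33.3% and 26.0%. The difference was largest in TEs of 1000 to under 2000 bp, with 53.7% of 231 hyper-DMRs and 39.3% of 239 hypo-DMRs, beside 44.1% of the bases. In TEs of 4000 bp and more it was small, with 18.5% of 281 hyper-DMRs (95% CI 14.1 to 23.5) and 17.1% of 216 hypo-DMRs (95% CI 12.4 to 22.8), beside 8.26% of the bases. By zone, the shares were 41.0% and 28.3% in the arms, and 26.3% and 24.1% in the pericentromere. Among ATHILA elements 23 of 116 hyper-DMRs and 8 of 105 hypo-DMRs were at edges, and among ATREP elements 28.6% and 28.2%, beside 35.1% of the bases. In COPIA elements losses had the higher edge share, with 15 of 45 hyper-DMRs and 18 of 41 hypo-DMRs, and so they had in LINEs (6 of 22 and 5 of 11) and in Harbinger elements (8 of 13 and 4 of 5).

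Along the distance from a TE end, hyper-DMRs were densest in the outermost 200 bp of the element. Their density was 76.4 per Mb in the first 100 bp and 71.0 per Mb in the next 100 bp, and 38.6 per Mb between 300 and 500 bp. Hypo-DMRs had 53.3, 44.4 and 42.1 per Mb in the same bins and were as dense 500 to 1000 bp inside the element (53.8 per Mb). Beyond 2000 bp inside, hyper-DMRs had 31.1 per Mb and hypo-DMRs 20.8. Outside the element, gains had 28.5 per Mb and losses 38.7 per Mb in the first 100 bp, and 36.0 and 34.2 per Mb in the next 100 bp, so that neither direction was denser throughout. CHH hyper-DMRs of edges had a median of 35.4% at 24h and 19.4% at time point 0, and those of bodies 26.2% at 24h and 12.2% at time point 0, whereas the median gain was 13.1 points at edges and 13.2 points in bodies. CHH hypo-DMRs had a median of 12.8% at 24h and 31.4% at time point 0 at edges, and of 12.5% at 24h and 29.2% at time point 0 in bodies.

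**Figure D5:**
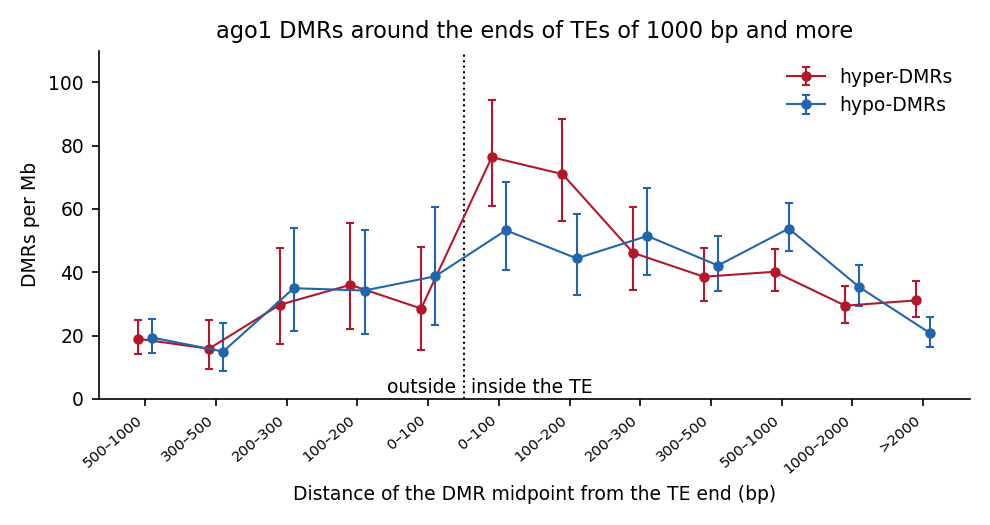
Density of hyper-DMRs (red) and hypo-DMRs (blue) of *ago1* plants, in DMRs per Mb, against the distance of their midpoint from the nearer end of a TE of 1000 bp and more, outside (left of the dotted line) and inside the element, with exact Poisson 95% intervals. Hyper-DMRs reach 76.4 per Mb in the first 100 bp inside, where hypo-DMRs have 53.3 per Mb.

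The largest gain lay in intergenic DNA of the arm of chromosome 4, at chr4:7243850-7244050, 1026 bp upstream of AT4G12090, which encodes a protein of the Cornichon family. Its CHH level was 83.4% at 24h and 7.72% at time point 0, a gain of 75.7 points. The next largest gain was 50.1 points, in the ARNOLDY2 copy AT3TE54245 at chr3:13261600-13261800, with 51.9% at 24h and 1.80% at time point 0. The third was 47.0 points in AT1TE51515, a copy of ATREP14 at chr1:15642950-15643200, with 50.7% at 24h and 3.64% at time point 0. The other 7 of the 10 largest gains were 42.2 to 45.3 points. They lay in copies of ARNOLDY1, ATREP1, TNAT1A, ATREP18, ARNOLDY2, ATIS112A and HELITRONY1E. Of these, the gain in ATIS112A, a Harbinger element, reached into the coding sequence of AT4G34690 (chr4:16556050-16556250, 44.0% at 24h and 1.72% at time point 0). The gain in TNAT1A at chr2:625550-625750 lay 1192 bp upstream of GSTZ2, a glutathione transferase gene, with 47.0% at 24h and 2.17% at time point 0. Several of these gains overlapped a *ddb2* hyper-DMR with other coordinates, and others, such as that in AT3TE54245, did not. The *ddb2* hyper-DMR had 46.2% at 24h and 4.2% at time point 0 at the TNAT1A gain, and 47.9% and 5.9% at AT1TE51515. Whether 24h values were shared there was not tested.

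Among the 10 largest losses, 4 were in ARNOLDY2 copies and 2 in HELITRONY3 copies. One of them was a loss of 54.9 points in the ARNOLDY2 copy AT2TE27165 at chr2:6661500-6661800, with 5.42% at 24h and 60.3% at time point 0. The HELITRONY3 copies lost 53.7 points at chr3:12136450-12136650, with 21.9% at 24h and 75.6% at time point 0, and 47.5 points at chr1:8239000-8239200, with 14.3% at 24h and 61.8% at time point 0. The largest loss outside TEs, at chr3:19568350-19568550, lay 861 bp upstream of AT3G52800, which encodes a zinc finger protein of the A20/AN1 type, with 12.9% at 24h and 61.3% at time point 0. A copy of ATREP3, AT4TE52280, lost 43.9 points at chr4:11360750-11361100, 1987 bp from its nearer end. The tenth loss, in the ATMU10 copy at chr2:12416150-12416500, overlapped the coding sequence of CXIP4, with 1.01% at 24h and 44.5% at time point 0. Several of the 10 largest losses overlapped a *ddb2* hyper-DMR with other coordinates, and others, such as that in AT2TE27165, did not. The *ddb2* hyper-DMR had 29.2% at 24h and 8.3% at time point 0 at the HELITRONY3 loss of chromosome 3. At that of chromosome 1 it had 35.5% and 11.7%. Sharing of 24h values at these losses was not tested.

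The TEs with the most gains were the VANDAL elements AT3TE63215 (VANDAL8) and AT4TE67560 (VANDAL6), with 4 gains and 1 loss each. Among those with 3 gains were AT1TE19910 (VANDAL2N1), with no loss, AT1TE31190 (VANDAL2), with 1 loss, and AT1TE48730 (ATHILA3), with no loss. Within the 8122 bp of AT4TE67560, levels of the 4 gains were 30.01 to 44.4% at 24h and 18.0 to 33.8% at time point 0. Among them, the gain at chr4:14281300-14281500 is listed with an identical 24h level for *ddb2* plants (32.0%). The TE with the most losses was AT2TE26910, an ARNOLD2 element of 15491 bp on chromosome 2 with 4 losses and 2 gains. Its 4 losses lay 960 to 6055 bp inside the element, with 6.27 to 10.4% at 24h and 22.2 to 32.2% at time point 0. Its 2 gains lay 80 and 410 bp from its ends, with 36.0% and 29.8% at 24h and 25.7% and 17.2% at time point 0. In this element the gains thus lay nearer to the ends than the losses. AT2TE18320 and AT2TE27165 (both ARNOLDY2) and AT2TE25540 (ATGP1) had 3 losses each and no gain, and AT5TE46970 (ARNOLD3) had 3 losses and 2 gains.

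Each of the 6 CHG DMRs had a CHH DMR with the same coordinates and direction. The study, by contrast, states that it could find no region where both contexts changed together in any plant tested. The largest CHG gain was in AT5TE46685, an ATHILA4C element, at chr5:13121550-13121800, with 68.5% at 24h and 32.1% at time point 0. CHH methylation there was 30.3% at 24h and 7.20% at time point 0. In the SIMPLEGUY1 element AT1TE85105, at chr1:25976500-25976850, CHG methylation was 55.7% at 24h and 21.9% at time point 0, and CHH methylation 42.5% at 24h and 8.50% at time point 0. The other 3 gains were in AT4G11430, in the ATHILA2 element AT4TE20400 and in AT5G47300, and had CHG gains of 20.2 to 24.1 points. The single CHG loss was in AT5TE44200, a VANDAL6 element, with 42.2% at 24h and 66.2% at time point 0, beside CHH levels of 7.0% at 24h and 25.2% at time point 0.

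Protein-coding genes held 113 DMR midpoints outside TEs, 66 of gains and 47 of losses. Of 27206 genes 0.224% held a hyper-DMR in this way and 0.169% a hypo-DMR. Coding sequence was touched by 81 of these DMRs, introns alone by 14 and UTRs or non-coding exons by 9, and the other 9 lay where the TAIR10.1 annotation lacks the gene or places it elsewhere. Genes for extensins, repetitive proline-rich glycoproteins of the cell wall, held 16 of the 113 DMRs, 9 gains and 7 losses. They fell in 8 of the 56 genes whose product is named extensin (14.3%), against 101 of all 27206 genes (0.371%). This group was chosen after its values were seen, and extensin genes hold internal repeats and near-identical relatives, so that read placement in them is uncertain. The largest gain in a gene was in EXT10 (AT5G06640) at chr5:2041400-2041600, with 40.6% at 24h and 10.13% at time point 0. The longest hyper-DMR of all, 1000 bp at chr5:2036400-2037400, covered coding sequence of the neighbouring extensin gene AT5G06630, with 30.9% at 24h and 15.7% at time point 0. Gains of 25.4 and 24.5 points were found in the extensin genes AT3G28550 and AT1G23720, a gain of 22.9 points in AT1G06148, and EXT10 also held a loss of 10.7 points that overlapped one of its gains by 100 bp. The largest loss in a gene was in AT5G06030, of the plant self-incompatibility protein S1 family, with 0.952% at 24h and 29.4% at time point 0. Another gene of this kind close by, AT5G06040, fell by 20.01 points. MEE23, a gene of the berberine bridge enzyme family, had a loss in an intron, with 16.3% at 24h and 39.7% at time point 0. DD18 and AT4G20580 lost 22.3 and 20.7 points. The longest hypo-DMR, also of 1000 bp, lay upstream of LBD8 at chr2:8452100-8453100, with 14.1% at 24h and 35.1% at time point 0.

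Of 62 genes of DNA methylation, demethylation, the AGO1 pathway, photolesion repair and known methylation targets, 1 had a hyper-DMR and 3 had a hypo-DMR in the gene or within 1000 bp. Among all protein-coding genes these shares were 2.69% and 2.07%, and 4.58% for either direction, so that the listed genes were close to all genes in this respect. The gain lay 594 bp upstream of NRPE1, the largest subunit of the RdDM polymerase Pol V, with 11.9% at 24h and 0.256% at time point 0. NRPD2, which encodes the second subunit shared by Pol IV and Pol V, had a loss 342 bp upstream, with 35.2% at 24h and 53.7% at time point 0. SUVH9, which binds methylated DNA and helps to recruit Pol V, had a loss of 33.8 points in a TNAT1A element at its UTR (chr4:7823850-7824050), with 18.3% at 24h and 52.1% at time point 0. SDC, an F-box gene silenced through methylated promoter repeats, had a loss 83 bp upstream at chr2:7681900-7682300, with 16.5% at 24h and 33.5% at time point 0. None of the 9 genes of the AGO1 pathway, the 5 of demethylation and the 8 of photolesion repair had a DMR.

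Copies of ATCOPIA78 (ONSEN), a heat-responsive Copia element, had DMRs about as often as other long TEs. Of 24 annotated pieces, 8 were at least 4000 bp long, and of these 2 had a hyper-DMR and 1 had hypo-DMRs in the element or within 1000 bp. Among all TEs of this length the shares were 24.5% and 22.2%. The larger gain was at the end of AT1TE59755, with 46.3% at 24h and 29.1% at time point 0, and AT1TE24850 gained 10.001 points in its body, the smallest gain listed. AT5TE15240 had a loss of 10.3 points 417 bp from its end, with 36.9% at 24h and 47.2% at time point 0, and the other loss near it, of 27.6 points, lay outside in a HELITRONY3 element. A piece of 788 bp, AT1TE57015, lost 28.2 points at its end, with 19.7% at 24h and 47.9% at time point 0. Gains and losses were thus both found at ONSEN copies.

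Neighbouring DMRs, as listed, did not share their direction more often than not. Consecutive windows of the same change had been joined before listing, which lowers the number of neighbours with the same direction. The share therefore does not tell whether nearby windows changed alike. Of 243 neighbours at most 500 bp apart, 113 had the same direction (46.5%, 95% CI 40.1 to 53.0) and 130 opposite directions. The closest opposite pair was that in EXT10, where the loss had 17.4% at 24h and 28.1% at time point 0, and the gain 37.2% at 24h and 17.7% at time point 0.

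Hypo-DMRs were poorer in G and C than hyper-DMRs. The median GC content of CHH DMRs was 30% in losses (95% CI 29.5 to 30) and 32.8% in gains (95% CI 32.4 to 33.4). In TEs other than helitrons it was 31.5% in losses and 34.9% in gains, while in ATREP elements it was 25.5% and 26.0%, with intervals that overlapped. CHH cytosines were 24.3 per 100 bp of both strands in losses and 25 in gains, beside 25.5 in 200-bp windows of TEs. CG cytosines numbered 2.40 per 100 bp of both strands in losses (95% CI 2.00 to 2.40) and 4.00 in gains (95% CI 3.33 to 4.00). The share of CHH cytosines followed by A or T and then A, the context CMT2 is known to prefer, was 31.1% in losses and 29.8% in gains.

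Regions enriched in photolesions of *ago1* plants, which were mapped at time point 0, were compared with the DMRs. Hyper-DMRs covered 393100 bp and hypo-DMRs 355249 bp in all, and the overlap that these lengths would give was not computed. Of 259 such regions, 8 overlapped a hyper-DMR (3.09%) and 10 a hypo-DMR (3.86%). In turn 8 hyper-DMRs (0.503%, 95% CI 0.217 to 0.988) and 7 hypo-DMRs (0.477%, 95% CI 0.192 to 0.981) overlapped a region. Of these 15 DMRs, 14 were pericentromeric and 7 lay in ATREP18 elements, among them the largest gain of the set, 38.5 points in AT2TE15385 with 45.5% at 24h and 7.0% at time point 0, and the largest loss, 39.0 points in AT3TE50860 with 12.4% at 24h and 51.4% at time point 0. Of all 3059 *ago1* DMRs 44.8% were pericentromeric and 47 lay in ATREP18 elements. The same shares of the 259 photolesion regions are not given here, so these counts may follow where those regions lie.

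As in WT plants, both directions were about equally frequent in *ago1* plants, whereas 1 direction prevailed in each of the other mutants. The share of gains was 52.0% in *ago1*, 95.1% in *dcl4*, 15.3% in *uvr3 phrI*, 96.5% in *ddb2* and 55.5% in WT plants. In ATREP elements *ago1* plants had 40.3% gains (95% CI 36.1 to 44.7, n = 518) and WT plants 64.0% (95% CI 56.4 to 71.1, n = 175), and in ATREP3 the shares were 24.8% of 109 DMRs in *ago1* and 62.2% of 37 in WT plants. In HELITRON elements they were 44.4% in *ago1* and 60.7% in WT plants, and in ATHILA elements 53.1% in *ago1* and 53.9% in WT plants. In *dcl4* plants the lowest shares were also those of ATREP (88.0%) and HELITRON (89.1%) elements. This did not hold in *uvr3 phrI* plants, with 18.4% in ATREP and 13.2% in HELITRON elements beside 14.9% over TEs, nor for HELITRON elements in *ddb2* plants, with 97.9% beside 97.5% over TEs. By TE length, the share in WT plants was 62.2% under 500 bp, 56.7% at 2000 to under 4000 bp and 55.0% at 4000 bp and more, without a rise in the longest TEs. In *ago1* plants it was 43.9% at 2000 to under 4000 bp and 56.5% at 4000 bp and more, so that both genotypes were close in the longest TEs. In *dcl4* plants it was 91.1% at 500 to under 1000 bp and 97.6% at 4000 bp and more. The edge share of hyper- and hypo-DMRs was 33.1% and 25.9% in *ago1*, 29.1% and 26.6% in *dcl4*, 31.8% and 33.9% in *ddb2*, 30.5% and 33.2% in *uvr3 phrI*, and 30.5% and 28.1% in WT plants. These differences between genotypes have no replicate check. Since 78 of 96 levels at 24h were identical at regions with the same coordinates, the *ago1* and *ddb2* lists may not be independent at 24h. At 4 of the 96 regions an *ago1* loss was listed as a *ddb2* gain. Of these, chr2:9039100-9039300, chr2:11643600-11643800 and chr4:14434050-14434250 had identical 24h levels. Their levels at time point 0 were 75.5%, 38.7% and 50.2% in *ago1* and 32.7%, 10.9% and 25.4% in *ddb2* plants. There the lists differ in time point 0 only. Whether the contrast between the lists rests on time point 0 elsewhere was not tested.

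The share of *ago1* DMRs found again in another list is given without the share that the size of that list would give, which was not computed. The *ddb2* lists are not part of this comparison. A WT hyper-DMR covered at least 50% of the length of 4.08% of the *ago1* hyper-DMRs and of 3.20% of the *ago1* hypo-DMRs, and a WT hypo-DMR covered 2.76% and 1.09%. In turn *ago1* hyper-DMRs covered 5.69% of the WT hyper-DMRs. The *dcl4* hyper-DMRs, which are more numerous, covered 26.4% of the *ago1* hyper-DMRs and 21.6% of the *ago1* hypo-DMRs, and the hypo-DMRs of *uvr3 phrI* plants covered 10.6% and 6.27%. In turn *ago1* hyper-DMRs covered 5.50% of the *dcl4* hyper-DMRs and 6.97% of the *uvr3 phrI* hypo-DMRs. Regions that gained CHH methylation in *dcl4* plants thus met both gains and losses of *ago1* plants.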

How the data were processed

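WGBS of leaves of *ago1* plants was used, with 1 library at 24h and 1 at time point 0. The levels deposited for each region are scores, namely the fraction of cytosine calls that were methylated, with a decimal comma, and are given here as percentages. The authors used BSMAP and TAIR10 for mapping, then contrasted 24h with time point 0 in 200-bp sliding windows, joined consecutive windows of the same change and kept changes of at least 40 points in CG, 20 in CHG and 10 in CHH. The deposited fold enrichment of photolesion regions is the ratio of IP over input by MACS2 2.1. The listed change was checked against the levels. The depth per region is not given in the sources used here.

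DMRs were assigned by their midpoint to the TEs and genes of the authors' annotation, with TEs first. TE groups follow the names. Pericentromeres were runs of 100-kb bins with a smoothed coverage by genes under 50% of the chromosome's median. Sequences, strands and gene parts came from TAIR10.1, in whose annotation 26719 of 27206 genes were found by name. Of the *ago1* DMRs, 1 ended 61 bp past a chromosome end and was kept. No test was made, since each group is 1 library. Intervals and assignment were tested on simulated data. Python 3.11.15, numpy 2.4.6, pandas 2.3.3, scipy 1.17.1 and matplotlib 3.10.9 were used. Distances to genes of the largest changes are from the DMR midpoint, those of listed genes from the nearer DMR end. Members and lists were chosen with earlier results of these data known. Named loci were the 10 largest gains and losses, the longest DMRs, the CHG DMRs, the TEs and TE names with the most DMRs, the 5 largest gains and losses in genes, DMRs at 62 listed genes and at ATCOPIA78 copies, and the closest opposite pair, of which 1 loss is not reported here. Alternatives covered the minimum change, DMR length, merging, the rule for TEs, edges of 200 or 500 bp and regions in the *ddb2* lists. The 6 small RNA tables were not used beyond their annotation, since 60 columns match no sample.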

Additional observations from a re-analysis of the deposited data

How the results depend on the processing

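A higher minimum change moved the balance most. With at least 15 points, 540 hyper- and 741 hypo-DMRs were left (42.2% gains), and with at least 20 points 195 and 371 (34.5%). DMRs longer than 200 bp numbered 793 hyper- and 701 hypo-DMRs. Merging DMRs closer than 100 bp left 1585 and 1462. At a minimum of 15 points only 12 DMRs were left in SINEs, all of them gains. SINEs then stood 61.7 points above ATREP elements in the share of gains, against 39.1 points with all DMRs. The edge share of hyper- and hypo-DMRs was 25.5% and 17.0% with an edge of 200 bp, beside 13.7% of the bases, 46.4% and 40.6% with 500 bp, beside 34.1%, and 22.3% and 18.2% in TEs of at least 2000 bp, beside 12.4%. Hyper-DMRs had the higher edge share in each of these settings, by 4.14 to 8.48 points. Means in place of medians gave 32.2% at 24h, 17.3% at time point 0 and a gain of 14.8 points for CHH hyper-DMRs, and 14.8% at 24h, 32.0% at time point 0 and a change of -17.1 points for CHH hypo-DMRs. Leaving out the regions of the *ddb2* lists moved no value beyond its interval. This removed only the 3.14% of DMRs with the same coordinates, so it cannot show whether the other DMRs share 24h values with *ddb2*. Of 109 values under alternatives, 35 moved beyond their interval or by over 1.5 times in number, and 14 of these were shares of single TE groups or lengths at a minimum of 15 points. No paired analysis was possible because each time point is 1 pooled library. The unknown depth per region limits each level.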
